A study of Mus musculus with 6 samples.

Results

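The 10 genes described here mark macrophages and the presentation of antigen to T cells in the kidney, and were taken by symbol from the 46095 genes of the deposited count table. They were the macrophage surface genes Adgre1, Csf1r and Cx3cr1, the complement genes C1qa, C1qb and C1qc, the lysosomal genes Cd68 and Lyz2, and the antigen presentation genes Cd74 and H2-Aa. All 10 had enough counts to be tested, among 14611 tested genes. RNA sequencing was performed on primary tubular epithelial cells (PTECs) freshly isolated from kidneys of mice 10 weeks old. Both groups carried floxed VHL alleles and a Ksp-Cre transgene, which is expressed in renal tubular epithelium, and the mice labelled VHL-KO;SETD2-KO also carried floxed Setd2 alleles. The label VHL-KO covered 3 libraries, replicates 1, 2 and 4, and the label VHL-KO;SETD2-KO another 3, replicates 2, 3 and 4, and no wild-type library was analysed here. Each library is described in the study as coming from a separate mouse, and macrophages are not a cell type in which Ksp-Cre is expressed.

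Macrophages live in the kidney between the tubules, where they engulf dying cells and debris, sense the growth factors CSF1 and IL34 through the receptor CSF1R, and are a main source of C1q in the tissue. C1q is assembled from A, B and C chains and starts the classical complement cascade. Antigen taken up by macrophages and dendritic cells is presented on MHC class II molecules, which are paired chains such as the alpha chain encoded by H2-Aa, with the invariant chain encoded by Cd74 filling the groove until the lysosome. These transcripts were read here in a preparation of epithelial cells. A lower value can come from fewer macrophages, from less RNA per macrophage, from other cells that express the gene or from differences between libraries. Bulk libraries cannot tell these apart.

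The libraries held between 11168552 and 17883466 counts, and the 10 genes together took between 0.0139% and 0.0666% of them. The smallest signal taken as detectable, 3 counts in a library, was between 0.159 and 0.280 CPM (counts scaled by TMM library sizes), which covers counting error only. The library labelled VHL-KO replicate 4 stood apart, with Spearman correlations of 0.717 to 0.765 with the others against 0.937 to 0.986 among the others, and with 11.3% of its counts on mitochondrially encoded genes against 25.9% to 36.4%. Setd2 counts were 1179, 799 and 132 under the label VHL-KO, beside 1499, 1019 and 1429 under the label VHL-KO;SETD2-KO, so the targeted gene was not lower under the second label in counts summed over the whole gene (log2 fold change 0.52, edgeR adjusted p = 0.787). Vhl, deleted under both labels, had 232, 139 and 276 counts against 271, 317 and 189 (log2 fold change -0.26, edgeR adjusted p = 0.833). Every direction given below is therefore a direction between labels. VHL-KO;SETD2-KO replicate 3 had 11704 counts of Xist, a transcript of the inactive X chromosome, whereas the other libraries had 0 to 4. Proximal tubule markers such as Slc34a1 and Lrp2 were abundant in every library, with 10 markers summing to 33519, 30864 and 30791 CPM under the label VHL-KO and to 13214, 10096 and 14691 CPM under the label VHL-KO;SETD2-KO.

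The members covered a wide range of levels. Per kilobase of the longest protein-coding transcript, Cd74 had the highest mean level over the 6 libraries (107 ± 107 RPKM, SD), and Lyz2 had the next highest (76.5 ± 39.7 RPKM), but Cd74 exceeded Lyz2 in only 3 libraries. C1qa (14.5 RPKM), C1qb (12.8 RPKM), Cd68 (9.48 RPKM), Csf1r (8.15 RPKM) and C1qc (8.07 RPKM) followed. The neighbours within that group changed places between libraries, C1qa lying above C1qb in 3 and C1qb above Cd68 in 3. Adgre1 (1.497 RPKM), H2-Aa (1.02 RPKM) and Cx3cr1 (0.926 RPKM) were lowest, and C1qc exceeded Adgre1 in all 6 libraries.

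Between the labels, the question was whether these immune genes differed in the PTEC preparations once Setd2 deletion was added to VHL deletion. In edgeR's quasi-likelihood test, 9 of the 10 members had a lower fitted level under the label VHL-KO;SETD2-KO, and the median log2 fold change was -1.10, beside 0.0094 over all tested genes. Of the members, 2 were lower at an unadjusted p under 0.05 and a fold of at least 1.5, C1qa and C1qb, where 4.68% of all tested genes were called lower by the same rule. None was higher by that rule, beside 2.66% of all tested genes. After Benjamini-Hochberg adjustment over all tested genes 0 members were called in either direction, beside 0.00684% of genes called lower and 0% called higher, and the smallest adjusted p of a member was 0.625. At the unadjusted threshold DESeq2 called 3 members lower (7.75% of all tested genes) and limma-voom called 0 (3.33%). One member, Adgre1, had CPM values that did not overlap between the labels, being lower in each library of the label VHL-KO;SETD2-KO, a pattern that 11% of all tested genes shared, and no member had the reverse pattern, which 9.62% of them had.

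**Figure D1:**
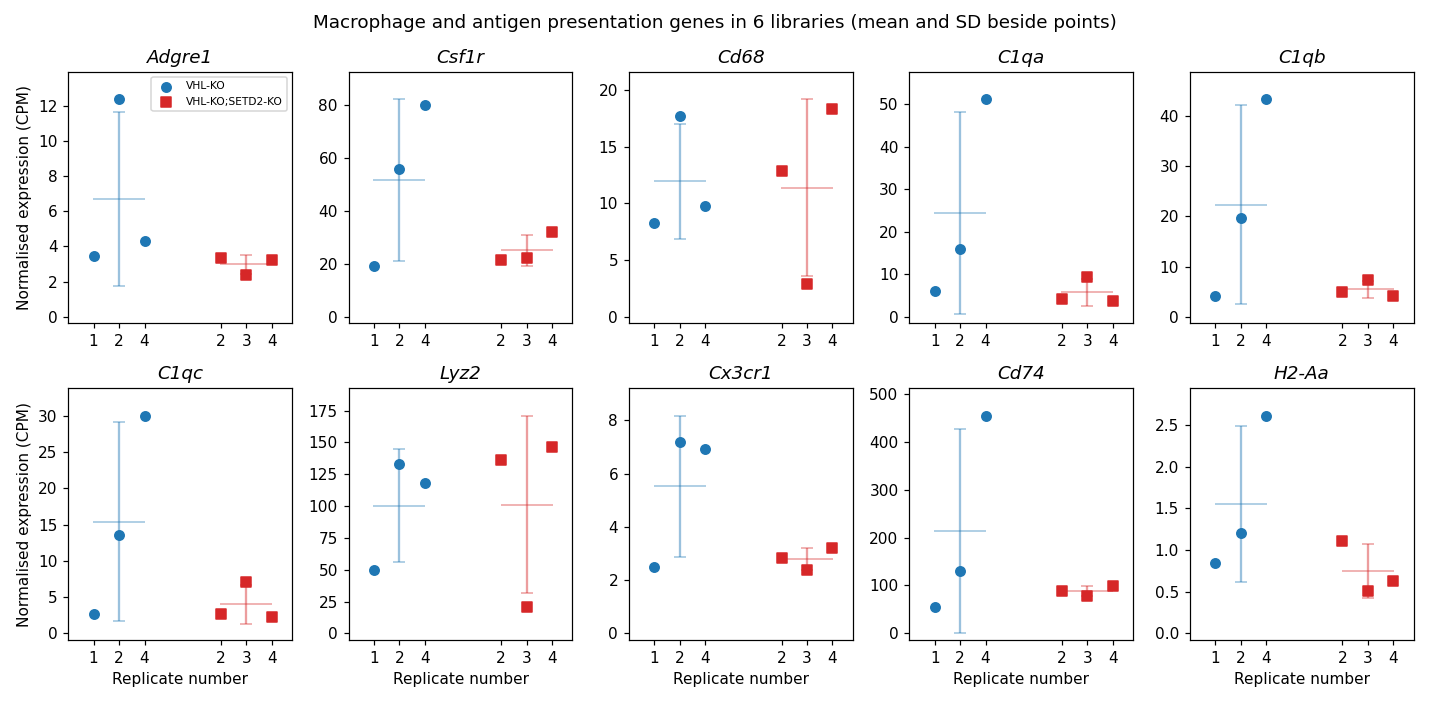
Each panel plots one gene, with normalised expression in CPM on the vertical axis and the replicate number on the horizontal axis. Circles are libraries labelled VHL-KO, squares are libraries labelled VHL-KO;SETD2-KO, and the line and bar give the mean and SD of 3 libraries. The C1q genes and Cd74 were highest in VHL-KO replicate 4, while Lyz2 and Cd68 were lowest in VHL-KO;SETD2-KO replicate 3.

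The C1q genes lie side by side on chromosome 4 in GRCm38, all on the minus strand. By RefSeq they run from 136880126 to 136886200 (C1qb), from 136889801 to 136892936 (C1qc) and from 136895916 to 136898844 (C1qa). C1qa had 6.17, 16.0 and 51.2 CPM in VHL-KO replicates 1, 2 and 4 and 4.14, 9.39 and 3.76 CPM in VHL-KO;SETD2-KO replicates 2, 3 and 4. The groups overlapped, because replicate 3 of the second label lay above replicate 1 of the first. The mean was 24.4 ± 23.7 CPM against 5.76 ± 3.15 CPM (SD, 3 libraries each), a log2 fold change of -2.08 ± 0.79 (SE, edgeR unadjusted p = 0.029, adjusted p = 0.625). C1qb had 4.11, 19.6 and 43.3 CPM under the label VHL-KO and 4.99, 7.31 and 4.13 CPM under the label VHL-KO;SETD2-KO. Here VHL-KO replicate 1 was the lowest of all 6 libraries. The log2 fold change of C1qb was -2.02 ± 0.76 (SE, edgeR unadjusted p = 0.029, adjusted p = 0.625). C1qc had 2.66, 13.6 and 30.1 CPM against 2.65, 7.14 and 2.19 CPM, and its log2 fold change was -1.94 ± 0.86 (SE, edgeR unadjusted p = 0.052, adjusted p = 0.625).

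The 3 chains kept similar proportions in every library. C1qa made up between 32.5% and 47.7% of the C1q counts, C1qb between 30.7% and 42.3%, and C1qc between 20.6% and 29.95%. Their summed counts were highest in VHL-KO replicate 4 (1334), followed by VHL-KO replicate 2 (532) and VHL-KO;SETD2-KO replicate 3 (424), and lowest in VHL-KO;SETD2-KO replicate 4 (161). Libraries of one label differed widely, and C1qc was 5.10 times as high in VHL-KO replicate 2 as in VHL-KO replicate 1.

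The sequences before C1qb and C1qc are shown because these neighbouring genes varied together over the libraries, and that before Lyz2 because it did not vary with them. RefSeq (GRCm38.p6) promoter windows of 250 bases before the gene start were matched for 6 of the 10 members. Each is printed 5′ to 3′ on the gene's own minus strand, cut where a GENCODE transcript begins, with capitals marking AGGAAG or its reverse complement CTTCCT, letters that form the core bound by ETS factors such as the macrophage regulator PU.1. The positions are chr4:136886201-136886450 for C1qb, chr4:136893066-136893164 for C1qc and chr10:117282322-117282522 for Lyz2.
C1qb: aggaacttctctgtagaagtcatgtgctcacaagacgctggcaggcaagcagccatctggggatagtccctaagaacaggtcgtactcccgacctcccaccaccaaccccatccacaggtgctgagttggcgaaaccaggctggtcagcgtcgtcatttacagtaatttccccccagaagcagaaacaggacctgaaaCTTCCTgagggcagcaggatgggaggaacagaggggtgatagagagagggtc
C1qc: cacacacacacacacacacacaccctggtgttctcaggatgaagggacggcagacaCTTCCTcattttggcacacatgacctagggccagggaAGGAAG
Lyz2: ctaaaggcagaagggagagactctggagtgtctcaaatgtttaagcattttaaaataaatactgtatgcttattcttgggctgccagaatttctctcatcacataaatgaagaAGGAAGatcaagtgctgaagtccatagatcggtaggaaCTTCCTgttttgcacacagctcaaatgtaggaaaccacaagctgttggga
On either strand the motif began 52 bases before the start of C1qb, 194 and 157 bases before that of C1qc, and 137 and 99 bases before that of Lyz2. Distances are counted from the start used in the promoter table, which for C1qc lies inside the gene interval given above. These were 3 of the 6 members searched, and 29.5% of all 32851 promoter windows of the same length held the motif. The letters AGGAAG were therefore found before members that varied together and before one that did not, and a match is only a description of the sequence.

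Lyz2, the lysozyme of macrophages and neutrophils, and Cd68, a lysosomal membrane glycoprotein of macrophages, had another pattern. Lyz2 had 49.98, 133 and 118 CPM in VHL-KO replicates 1, 2 and 4 and 136, 20.7 and 146 CPM in VHL-KO;SETD2-KO replicates 2, 3 and 4. The second label thus held both the lowest and the highest value, and the fitted log2 fold change was 0.013 ± 0.72 (SE, edgeR adjusted p = 0.996), with a 95% interval from -1.65 to 1.67. Cd68 had 8.29, 17.7 and 9.80 CPM under the label VHL-KO and 12.9, 2.92 and 18.3 CPM under the label VHL-KO;SETD2-KO, and its log2 fold change was -0.068 ± 0.66 (SE, edgeR adjusted p = 0.977). Both genes had their lowest value in VHL-KO;SETD2-KO replicate 3, at 0.147 (Lyz2) and 0.187 (Cd68) of the mean of replicates 2 and 4. In the same library C1qa was 2.38 times and C1qc 2.95 times that mean.

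Set against C1q within each library, Lyz2 gave 3.86, 2.70 and 0.948 counts per C1q count under the label VHL-KO and 11.6, 0.870 and 14.5 under the label VHL-KO;SETD2-KO. The ratio was highest in VHL-KO;SETD2-KO replicates 2 and 4. The 9 neutrophil markers summed to 7.503, 8.22 and 5.88 CPM under the label VHL-KO and to 19.4, 8.88 and 19.2 CPM under the label VHL-KO;SETD2-KO, so they were also highest in those libraries. The listed neutrophil genes Ly6g and Mpo were at 0 in all 6 libraries, while Csf3r had 33 to 129 counts per library. The annotation used for counting is not given, so a 0 was not read as absence of neutrophils. The part of neutrophil RNA in the Lyz2 values was not tested. The near-identical paralogue Lyz1 had 39 counts in all beside 8807 for Lyz2, and how reads shared between the copies were assigned is not given in the sources used here.

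**Figure D2:**
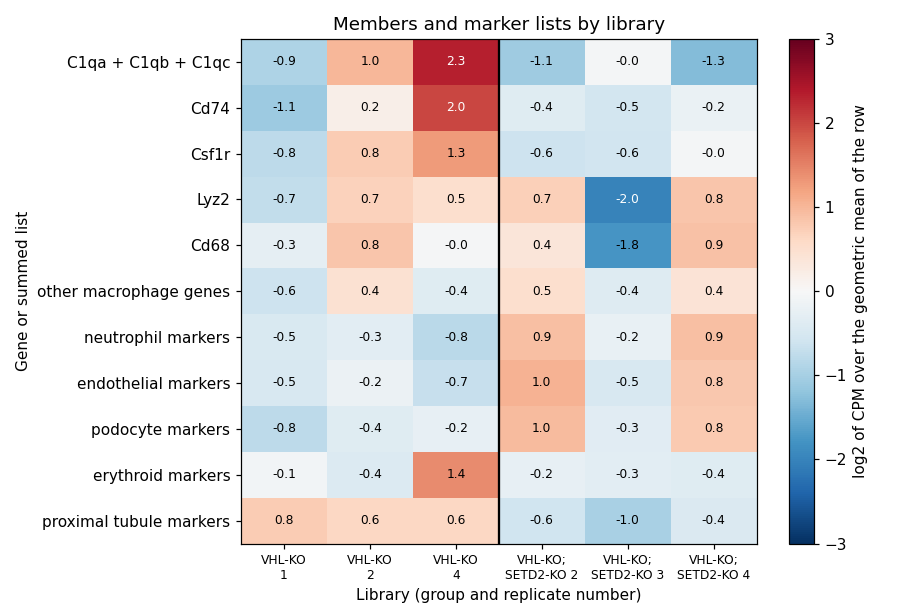
Rows are members or summed marker lists and columns are the 6 libraries. Colour and number give the log2 of CPM over the geometric mean of the row. C1q and Cd74 peaked in VHL-KO replicate 4 (2.3 and 2.0), Lyz2 and Cd68 were lowest in VHL-KO;SETD2-KO replicate 3 (-2.0 and -1.8), and neutrophil, endothelial and podocyte markers were highest in VHL-KO;SETD2-KO replicates 2 and 4.

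Adgre1 encodes F4/80, the surface receptor used to stain mouse macrophages. It had 3.45, 12.4 and 4.29 CPM in VHL-KO replicates 1, 2 and 4 and 3.34, 2.36 and 3.26 CPM in VHL-KO;SETD2-KO replicates 2, 3 and 4. The groups did not overlap, but VHL-KO replicate 1 and VHL-KO;SETD2-KO replicate 2 were almost level. The log2 fold change was -1.16 ± 0.59 (SE, edgeR adjusted p = 0.625), and without VHL-KO replicate 2, which was 3.59 times VHL-KO replicate 1, it was -0.36.

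Csf1r, the receptor through which CSF1 and IL34 keep macrophages alive, had 19.1, 55.8 and 79.7 CPM under the label VHL-KO and 21.3, 22.1 and 31.8 CPM under the label VHL-KO;SETD2-KO. Its log2 fold change was -1.04 ± 0.55 (SE, edgeR adjusted p = 0.625), and VHL-KO replicate 1 lay below every library of the other label. Cx3cr1, the fractalkine receptor of resident macrophages, had 2.48, 7.20 and 6.91 CPM against 2.81, 2.36 and 3.19 CPM, with a log2 fold change of -0.98 ± 0.53 (SE, edgeR adjusted p = 0.625). Its groups overlapped through the same VHL-KO replicate 1. Exons of Csf1r overlap those of Hmgxb3, and exons of Cx3cr1 those of Gm33858, on opposite strands in GENCODE, and whether the counting used strand is not given in the sources used here.

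Among the ligands, Il34 was the gene called at the unadjusted threshold. It had 30.4, 19.4 and 70.9 CPM under the label VHL-KO and 15.1, 8.66 and 14.9 CPM under the label VHL-KO;SETD2-KO, without overlap, and its log2 fold change was -1.64 ± 0.56 (SE, edgeR adjusted p = 0.625). Csf1 had 52.3, 75.3 and 53.2 CPM against 146, 46.7 and 130 CPM, a log2 fold change of 0.84 ± 0.51 (SE, edgeR adjusted p = 0.628). Cx3cl1, the ligand of CX3CR1, had 61.2, 70.0 and 179 CPM against 122, 82.4 and 99.2 CPM, a log2 fold change of -0.031 ± 0.51 (SE, edgeR adjusted p = 0.986). Of the 7 listed growth factors, ligands and receptors, 6 were tested, with a median log2 fold change of -0.12. Among them 1 was called lower (4.68% of all tested genes) and none higher (2.66%).

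Cd74, the invariant chain that escorts MHC class II molecules, had the highest summed counts of all members over the 6 libraries, with 53.7, 129 and 456 CPM in VHL-KO replicates 1, 2 and 4. In VHL-KO;SETD2-KO replicates 2, 3 and 4 it had 88.9, 77.6 and 98.5 CPM. These 3 values lay between VHL-KO replicates 1 and 2, and VHL-KO replicate 4 alone was 4.98 times the mean of its 2 group members. The log2 fold change was -1.27 ± 0.73 (SE, edgeR adjusted p = 0.626), and without VHL-KO replicate 4 it was -0.052. A microRNA gene, Mir5107, lies inside a Cd74 exon on the same strand.

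H2-Aa, the class II alpha chain itself, had 14, 13 and 28 counts (0.847, 1.20 and 2.61 CPM) under the label VHL-KO and 21, 9 and 10 counts (1.11, 0.506 and 0.626 CPM) under the label VHL-KO;SETD2-KO. Its log2 fold change was -1.03 ± 0.64 (SE, edgeR adjusted p = 0.629) and the groups overlapped. There were between 63.4 and 174 counts of Cd74 for each count of H2-Aa in a library, although the products of both genes act in one complex.

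The interval of chromosome 17 around H2-Aa (34282744 to 34287823, minus strand) held few counts for many of its genes. This was looked at after the values were seen. Of 106 other protein-coding genes starting within 1 Mb of H2-Aa, 63 (59.4%) had at most 18 counts over the 6 libraries together, and the median was 8.5 counts. Over all 19031 protein-coding genes matched, olfactory and vomeronasal receptors left out, 27.3% were at or under 18 counts and the median was 642. Around the other 9 members 9.68% to 26.3% of the neighbours were at or under 18 counts. The neighbours of Cd68 nevertheless had a median of 108.5 counts, against 1214.5 to 1965 around the remaining 8, and widely used genes among them were also low, such as the translation factor gene Eif5a (522 counts in all) and the profilin gene Pfn1 (205). The interval holds genes that nearly every cell uses, and some of these were also at or near 0. The chaperone gene Bag6, the casein kinase gene Csnk2b, Clic1 and Prrc2a had 0 counts in every library, and the RNA helicase gene Ddx39b had 1 in all. Other genes of the interval were well counted. The ribosomal protein gene Rps18 had 178 to 605 counts per library. Summed over the 6 libraries, Hnrnpm had 8148 counts, Rab11b 2741 and Neu1 1652. A low value of H2-Aa, or of another gene of this interval, was for that reason not read as low expression, and no fold of Cd74 over H2-Aa was read as a ratio of transcripts.

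**Figure D3:**
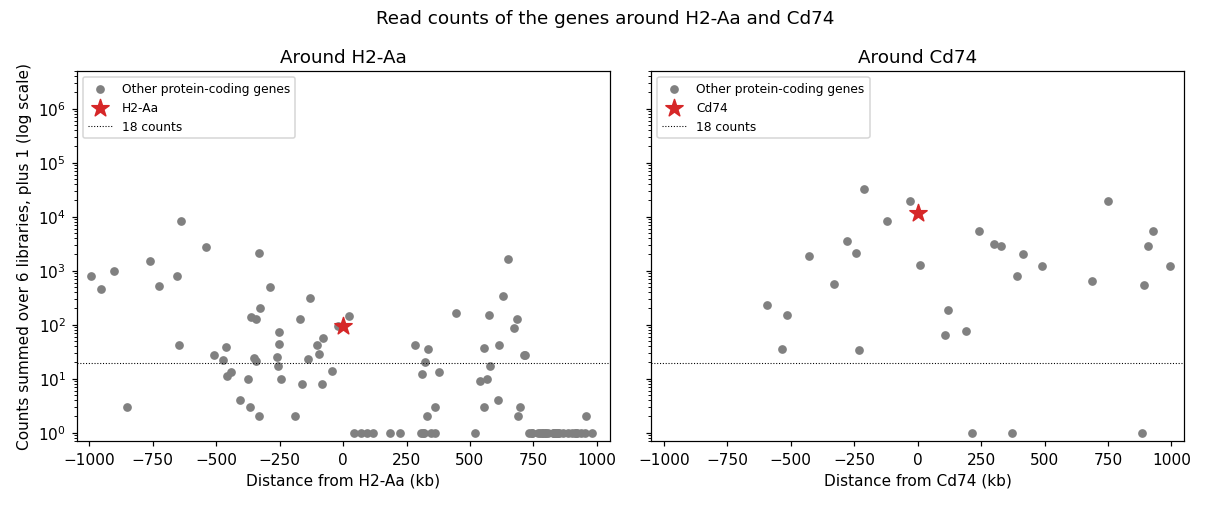
Each point is a protein-coding gene, with its distance from H2-Aa (left) or Cd74 (right) in kb on the horizontal axis and its counts summed over 6 libraries, plus 1, on a logarithmic vertical axis. The star is the named gene and the dotted line marks 18 counts. Of the neighbours, 59.4% around H2-Aa and 10% around Cd74 were at or under that line.

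The 250 bases before H2-Aa (chr17:34287824-34288073, minus strand, RefSeq GRCm38.p6) are shown because the elements that class II genes share lie there. Capitals mark the X2 box letters TGACGTCA and the Y box letters GATTGG, searched on both strands.
H2-Aa: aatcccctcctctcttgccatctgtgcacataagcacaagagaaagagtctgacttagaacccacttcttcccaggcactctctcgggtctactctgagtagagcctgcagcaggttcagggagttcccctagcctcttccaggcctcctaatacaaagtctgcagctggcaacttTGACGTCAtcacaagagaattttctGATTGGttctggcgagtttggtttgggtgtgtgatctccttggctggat
The X2 letters began 74 bases and the Y box letters 49 bases before the start, and of all promoter windows 1.55% held the first and 14.6% the second. The genes of the factors that act on these elements were measurable. Ciita, the class II transactivator, had 3.03, 4.16 and 14.6 CPM under the label VHL-KO and 1.91, 1.46 and 4.63 CPM under the label VHL-KO;SETD2-KO (log2 fold change -1.44 ± 0.74, SE, edgeR adjusted p = 0.625). Rfx5, a subunit of the X box factor, had 17.4, 16.1 and 8.12 CPM against 14.4, 11.8 and 14.97 CPM, with a log2 fold change of -0.016 ± 0.42 (SE, edgeR adjusted p = 0.992).

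Of 15 further class II genes and class II pathway genes, 10 were tested. Among them 1, H2-Eb1, was called lower at the unadjusted threshold (4.68% of all tested genes). H2-Eb1 had 1.51, 0.646 and 7.56 CPM against 0.690, 0.337 and 0.626 CPM (log2 fold change -2.53 ± 0.93, SE, edgeR adjusted p = 0.625). It lies, with 6 others of that list, within 1 Mb of H2-Aa. Outside the interval, the lysosomal thiol reductase Ifi30 had 28.2, 26.6 and 124 CPM against 20.4, 35.1 and 23.2 CPM, and the asparaginyl endopeptidase Lgmn had 432, 382 and 1160 CPM against 242, 531 and 262 CPM. Neither passed, with edgeR adjusted p-values of 0.625 and 0.639. Both were highest in VHL-KO replicate 4. Of 14 class I genes, 9 were tested and 0 were called (lowest unadjusted p 0.152), with a median log2 fold change of -0.19. B2m, the light chain of class I molecules, had 287, 375 and 727 CPM against 429, 484 and 373 CPM, and the heavy chain gene H2-D1 was listed at 0 in all libraries.

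Of 9 complement genes acting after or beside C1q, 8 were tested. Among them C4b was called lower at the unadjusted threshold (4.68% of all tested genes). C4b had 0.847, 0.831 and 10.4 CPM against 0.583, 0.506 and 0.376 CPM and also lies within 1 Mb of H2-Aa (log2 fold change -3.005 ± 1.06, SE, edgeR adjusted p = 0.625). The genes of the proteases bound to C1q, C1ra and C1s1, had log2 fold changes of -0.0069 and 0.81 (edgeR adjusted p = 0.996 and 0.625). C3, the central component, had 10.5, 17.9 and 84.9 CPM against 25.4, 27.4 and 37.2 CPM, a log2 fold change of -0.33 ± 0.74 (SE, edgeR adjusted p = 0.876). Of the 14 lysosomal enzyme and membrane genes, all tested, none was called, with a median log2 fold change of -0.64. Of these, 3 had groups that did not overlap, lower under the label VHL-KO;SETD2-KO (11% of all tested genes), among them the saposin precursor gene Psap with 952, 1042 and 4016 CPM against 805, 843 and 738 CPM. In the other direction there was 1 (9.62% of all tested genes), the lysosomal membrane gene Scarb2, with 60.1, 71.1 and 36.6 CPM against 133, 75.4 and 94.4 CPM.

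The wider set of macrophage genes did not repeat the C1q values. Of 30 listed genes 22 were tested, 0 were called in either direction at the unadjusted threshold, and the median log2 fold change was -0.17. Their summed level was 246, 511 and 294 CPM under the label VHL-KO and 528, 287 and 499 CPM under the label VHL-KO;SETD2-KO. The mannose receptor gene Mrc1 had 15.1, 15.1 and 2.24 CPM against 50.2, 13.1 and 9.08 CPM. Spi1, which encodes PU.1, had 2.12, 5.73 and 13.8 CPM against 4.14, 1.29 and 4.01 CPM, a log2 fold change of -1.19 ± 0.75 (SE, edgeR adjusted p = 0.633). Mertk, the receptor for dying cells, was the only one of the 30 whose groups did not overlap. It was higher under the label VHL-KO;SETD2-KO, with 88.5, 119 and 17.6 CPM against 164, 121 and 145 CPM. That pattern was shared by 9.62% of all tested genes, and VHL-KO replicate 2 and VHL-KO;SETD2-KO replicate 3 were almost level. Defining genes of some resident macrophages were near the floor, with Timd4, Vsig4, Cd163 and Lyve1 at most 0.847 CPM in any library.

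Some markers of other cells were called by edgeR at the unadjusted threshold, and none of any list was called after adjustment. Of 10 proximal tubule markers 3 were called lower at the unadjusted threshold (4.68% of all tested genes). Of the same 10, 5 were lower without overlap of the groups (11% of all tested genes). Slc22a6 was among them (log2 fold change -1.93 ± 0.53, SE, edgeR adjusted p = 0.625). Of 6 podocyte markers 3 were called higher, among them Nphs1 and Wt1, beside 2.66% of all tested genes. So were 3 of 5 tested neutrophil markers, S100a8, S100a9 and Cxcr2. S100a9 had 2.54, 1.02 and 0.934 CPM against 7.48, 2.70 and 5.32 CPM. Endothelial markers summed to 1987, 2465 and 1707 CPM against 5664, 1975 and 4842 CPM, with none of 8 called. Dendritic cell markers were called higher for 1 of 6 tested (2.66% of all tested genes), Zbtb46, which endothelial cells also express. Of the T and NK cell genes (8 tested), the B cell genes (6 tested) and the erythroid genes (6 tested), none was called. The defining B cell and T cell genes Ighm and Trbc2 were at 0 in all libraries, while Cd79a had 0.506 to 6.63 CPM and Cd3e 0.424 to 0.747 CPM. Those zeros were not read as absence of the cells. Collecting duct markers were called higher for 2 of 8, and loop of Henle and distal tubule markers for 1 of 7. Fibroblast and mural cell markers were called higher for 1 of 8, beside 2.66% of all tested genes called higher. The share of each cell type in the member values was not tested. Of the 7 cytokine genes with RT-qPCR primers in the study, 3 had enough counts for a test and none was called. The study reports Il1a, Il6, Cxcl1 and Ccl2 as higher by RT-qPCR in VHL-KO;SETD2-KO mice. Cxcl1 and Ccl2 had log2 fold changes of -0.088 ± 1.11 and -0.23 ± 0.60 (SE, edgeR adjusted p = 0.982 and 0.899). Il1a and Il6 had too few counts for a test. Il1b had 3.57, 11.3 and 1.96 CPM against 6.21, 3.20 and 9.14 CPM.

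The library labelled VHL-KO replicate 4 carried much of the difference in C1q and Cd74. It was 4.62 times (C1qa), 3.66 times (C1qb) and 3.70 times (C1qc) the mean of VHL-KO replicates 1 and 2, and without it the log2 fold changes were -0.94, -1.10 and -1.01, with none of these genes passing the unadjusted threshold and Adgre1 the 1 member called lower (7.15% of all tested genes). Over all tested genes with a transcript in GENCODE, that library also departed from replicates 1 and 2 by transcript composition, with a median log2 ratio of -2.30 in the quintile of genes lowest in GC and 1.59 in the quintile highest in GC. By length the medians went from 1.12 in the shortest quintile to -1.39 in the longest. The transcripts of C1qa, C1qb, C1qc and Cd74 are 56.6% to 59.5% GC and 1040 to 1410 bases long, which put them in the richest quintile by GC and the shortest by length. Adgre1, at 47.2% GC and 3238 bases, was 0.543 times the other VHL-KO libraries in replicate 4. With an offset for GC and length added after the data were seen, the log2 fold changes of the C1q genes lay between -1.18 and -1.13 and that of Cd74 was -0.34. Those of Csf1r and H2-Aa were -0.89 and -0.62. Adgre1 (-1.41) and Cx3cr1 (-1.17) had larger log2 fold changes than without the offset. In this fit C1qa, Adgre1 and Cx3cr1 were lower at the unadjusted threshold (9.07% of all tested genes). No member was called after adjustment.

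**Figure D4:**
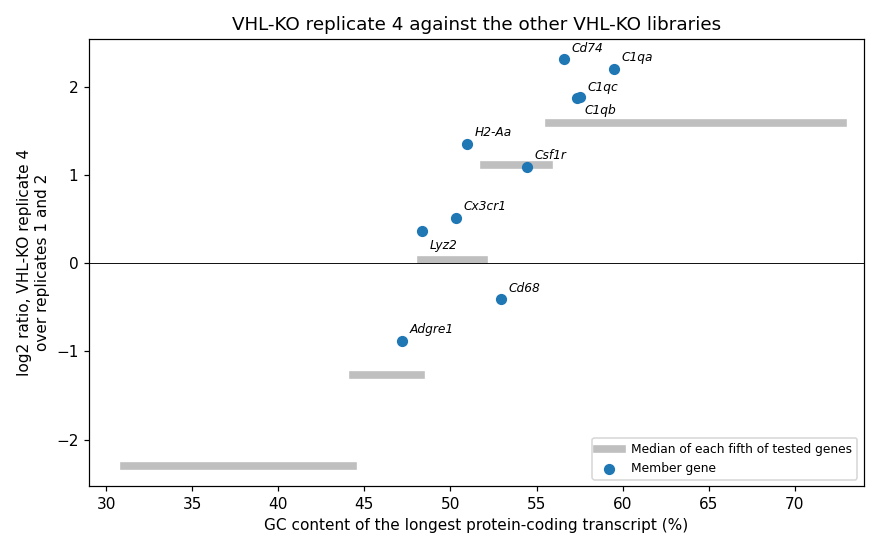
Points are the members, with the GC content of the longest protein-coding transcript (%) on the horizontal axis and the log2 ratio of VHL-KO replicate 4 to the mean of replicates 1 and 2 on the vertical axis. Grey bars are the medians of quintiles of all tested genes, each drawn over its GC range. The members rich in GC lie high, next to a median of 1.59 in the richest quintile.

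Leaving out VHL-KO;SETD2-KO replicate 3 as well, which left 2 libraries under each label, C1qa had a log2 fold change of -1.47 (edgeR adjusted p = 0.060), C1qb of -1.35 (adjusted p = 0.186) and C1qc of -1.71 (adjusted p = 0.130). Lyz2 was then at 0.64 and Cd74 at 0.041 (edgeR adjusted p = 0.294 and 0.948). By this fit 2 members, C1qa and C1qc, were lower at the unadjusted threshold, where 10.4% of all tested genes were. After adjustment this fit called 1311 tested genes higher and 1163 lower, and none of them was a member.

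**Figure D5:**
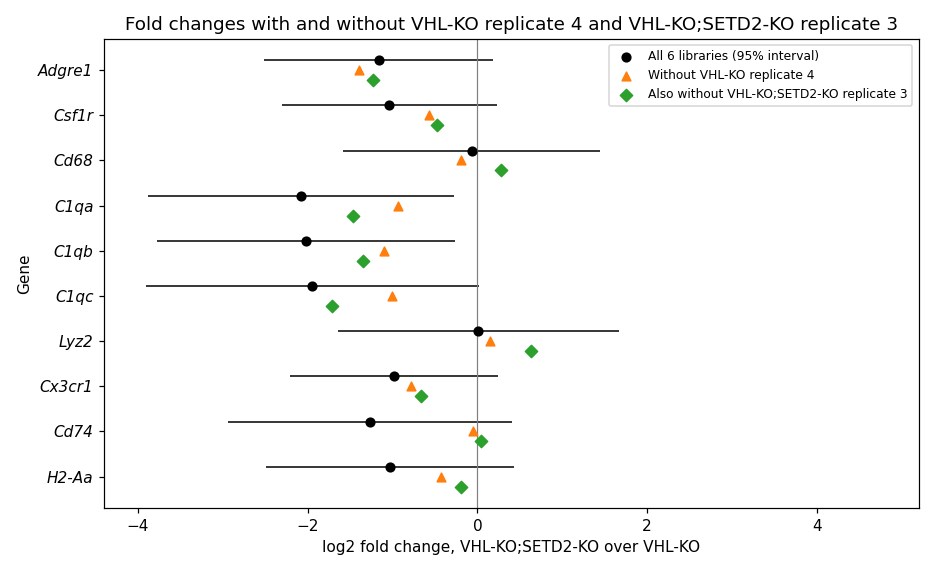
The horizontal axis is the log2 fold change of the libraries labelled VHL-KO;SETD2-KO over those labelled VHL-KO, and each row is a gene. Black circles with 95% intervals use all 6 libraries, triangles leave out VHL-KO replicate 4, and diamonds also leave out VHL-KO;SETD2-KO replicate 3. Of the intervals only those of C1qa and C1qb lie wholly below 0, and Cd74 moves from -1.27 to 0.041.

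The genes whose log2 CPM followed the mean of C1qa, C1qb and C1qc most closely over the 6 libraries were listed as a description. The 10 with the highest Pearson r were Klf1, an erythroid transcription factor (0.991), Mrps23 (0.976), 2010003K11Rik (0.975), Nek8 (0.973), Alkbh4 (0.970), Rbm4b (0.968), Lamb3 (0.966), Gm17762 (0.966), E130012A19Rik (0.964) and Hemk1 (0.963). None is on the macrophage lists. The libraries share depth and composition, and VHL-KO replicate 4 was the highest library for all 10. Among the other members r with the C1q mean was 0.874 for Csf1r, 0.863 for Cd74, 0.832 for Cx3cr1, 0.770 for H2-Aa, 0.476 for Adgre1, 0.102 for Lyz2 and -0.058 for Cd68. Without VHL-KO replicate 4 the order changed. In the same order of genes, r was then 0.696, 0.535, 0.733, 0.315, 0.732, -0.129 and -0.081.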

How the data were processed

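RNA sequencing was performed by the authors on PTECs from 6 mice, with directional paired-end libraries. The authors deposited raw read counts per gene symbol for each library, without normalization, and per the labels' processing notes used HISAT2 2.0.4 and the GRCm38 build. The counting program, annotation and strand setting are not given in the sources used here. All 46095 rows named a gene, and 0 per-sample columns were unused. Groups came from the genotype label, and no pairing was assumed.

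Library sizes were scaled by TMM, and the quasi-likelihood test of edgeR 4.0.16 (R 4.3.3) was run on the 14611 genes passing filterByExpr, with genotype as the only factor and Benjamini-Hochberg adjustment. Genes were called at p under 0.05 with a 1.5-fold change or more. CPM used TMM library sizes, log2 CPM a prior count of 2, intervals a level of 95%, and levels per length (RPKM) the longest protein-coding transcript of GENCODE M21. GC content and length were known for 94.5% of tested genes. Depth was 11168552 to 17883466 counts, and, lacking molecular identifiers, reads cannot be taken as independent molecules. The lowest chi-square per degree of freedom between any 2 libraries was 13.2, so no library was counted as a duplicate.

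The members and gene lists were chosen with earlier results of these data known. The genes named were all members, Setd2 and Vhl, those of each list with an unadjusted p under 0.05 or among its 3 highest in CPM, and the 10 most like C1q, though not each is given by name and some are not reported here. Other list genes, Xist, Lyz1, the neighbours of H2-Aa and those at 0 were chosen after their values were seen. Alternatives were RLE, DESeq2 1.42.0, limma 3.58.1 (voom), other filters, library sizes without mitochondrial genes (named in the table without the mt- prefix and found by RefSeq chromosome), the median transcript length, a fold of 2, the replicate block and leaving out each library. The offset and the fit without 2 libraries were added after seeing the data. The fits were tested on simulated data at the members' own group sizes, with 200 genes changed by 4-fold. At a dispersion of 0.05, edgeR and limma-voom each called 194 of them and DESeq2 187. At a dispersion of 0.3 edgeR called 12, DESeq2 75 with 29 false calls, and limma-voom 0.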

Additional observations from a re-analysis of the deposited data

How the results depend on the processing

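No member with an adjusted p was called in either direction under any alternative that was run. H2-Aa was not tested with at least 10 counts in every library, and DESeq2 gave no adjusted p for 9 members over the 6 libraries or for H2-Aa without VHL-KO replicate 4. The number of members lower at the unadjusted threshold was 2 with edgeR over all libraries, 0 with limma-voom (3.33% of all tested genes) and 1 with DESeq2 without VHL-KO replicate 4 (7.29%), and it ran from 0 to 7 when single libraries were left out. It was 7 without VHL-KO replicate 1, where 6.49% of all tested genes were called lower, 1 without VHL-KO replicate 4 (7.15%), and 0 without replicate 2 (1.37%) or replicate 4 (1.78%) under the label VHL-KO;SETD2-KO. The cause was not tested. The median log2 fold change of the members stayed between -1.44 and -0.57.

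Over all tested genes at the unadjusted threshold, 388 were higher and 684 lower with edgeR over all libraries, and the alternatives gave 93 (replicate block) to 1976 (2 libraries left out) higher and 54 to 1531 lower under the same settings. After adjustment 0 were higher and 1 lower, against 1 and 50 with DESeq2, 534 and 704 with DESeq2 without VHL-KO replicate 4, and 1311 and 1163 with 2 libraries left out.

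The signs of Lyz2 and Cd68 depended on the processing. Lyz2 was at -0.029 with RLE and with DESeq2 and at -0.31 with limma-voom, and Cd68 at 0.22 under the replicate block and at 0.22 with the GC and length offset. Without single libraries, Lyz2 ran from -0.33 to 0.51, Cd68 from -0.58 to 0.40 and Vhl from -0.42 to 0.12. DESeq2 without VHL-KO replicate 4 gave 0.12 for Vhl. With 2 libraries left out Cd68 was at 0.28 and Cd74 at 0.041. Rgs5 was at -0.091 with the offset.

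Replicate numbers 2 and 4 occur under both labels, but same-numbered libraries did not deviate together (correlations of 0.16 and -0.31), so the numbers were not treated as pairs. With the replicate block, 3 members were lower at the unadjusted threshold, as were 0.37% of all tested genes, and 0 after adjustment. Replicates 1 and 3 each occur under a single label, so that fit compared the labels within replicates 2 and 4 only. The outlying VHL-KO replicate 4 is among those libraries, so this count was not read as support. H2-Aa rests on 9 to 28 counts per library, which limits what its values can show.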
